A study of Homo sapiens with 8 samples.

Results

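9 of the genes that encode potassium channels or their relatives were followed through S phase: HCN4, KCNQ3, KCNQ5, KCNH1, KCNH7, KCNMA1, KCND2, KCNB2 and KCNT2. They are 9 of 19974 protein-coding genes of the autosomes and X, and each was measured by the labelled DNA fragments whose position lay inside its RefSeq body (GRCh38). HCN4 and KCNQ5 were chosen by their timing in these same data, HCN4 because it was labelled earlier in knockout cells and KCNQ5 because it was early for a gene of the nervous system, and the other 7 were picked with results of these data known. The timings that led to the choice are given as a description, with no test. The cells were RPE-1 hTERT, immortalised human cells of the retinal pigment epithelium that carry telomerase, either CFAP20-KO, in which the gene for the cilia and flagella protein CFAP20 is knocked out, or wild type (WT). Both genotypes received 10 µM EdU for 15 min, a nucleoside that is built into DNA in place of thymidine, with no other treatment, and were fixed in 70% ethanol. Cells of both genotypes were sorted onto each of 8 plates of 384 wells and read by single-cell EdU sequencing, which gives the genome position of each labelled fragment in each cell. The sources used here do not say whether the KO line is 1 clone or whether each plate had a culture of its own. A p-value here therefore weighs a difference against the scatter of the plates, which may be technical.

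HCN4 encodes a channel that opens on hyperpolarisation and carries the pacemaker current of the sinoatrial node. The other 8 genes encode pore-forming subunits of potassium channels, which carry potassium out of the cell and return the membrane to rest after excitation. Most of them are known for work in neurons, muscle or heart. In a single S phase each stretch of DNA is copied once, gene-rich and active DNA as a rule early, and long genes of the nervous system in cells that do not use them often late. The label reports when DNA was copied and how many labelled fragments were read from it, and carries no measure of channel RNA, protein or current.

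The plates held 26148975 fragments in 3023 wells, 1429 KO and 1594 WT, and 1746074 to 4181841 fragments per plate. Cells with at least 1000 autosomal fragments, 1140 KO and 1290 WT, were kept and ordered through S phase by the bins they labelled, from position 0 (early, label in gene-rich DNA) to 1 (late). The cells of 1 genotype on 1 plate form 1 library, with 854235 to 1478166 molecules in KO libraries and 800235 to 2643651 in WT libraries. A fragment is called a molecule, and the timing of a gene is the mean position of the cells of a plate, weighted by their molecules in the gene. The 9 bodies held 33622 molecules in all wells and 33102 in the cells kept. Well barcodes are shared by design: 377 of 378 occurred on all plates, and a cell was taken as a barcode within a plate.

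The 4 genes whose start of transcription is described below are shown by the 250 bases before that start, as RefSeq gives them on GRCh38.p14, read 5′ to 3′ on the strand of the gene. The sequences are at chr15:73368959-73369208 for HCN4 (minus strand), chr6:72621814-72622063 for KCNQ5 (plus strand), chr10:77637809-77638058 for KCNMA1 (minus strand) and chr7:120272925-120273174 for KCND2 (plus strand). Capitals mark each CG dinucleotide.
HCN4: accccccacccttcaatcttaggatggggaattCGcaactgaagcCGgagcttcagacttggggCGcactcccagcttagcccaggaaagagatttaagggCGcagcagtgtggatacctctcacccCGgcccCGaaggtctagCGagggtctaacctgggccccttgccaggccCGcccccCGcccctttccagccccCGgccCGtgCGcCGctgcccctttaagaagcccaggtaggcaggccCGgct
KCNQ5: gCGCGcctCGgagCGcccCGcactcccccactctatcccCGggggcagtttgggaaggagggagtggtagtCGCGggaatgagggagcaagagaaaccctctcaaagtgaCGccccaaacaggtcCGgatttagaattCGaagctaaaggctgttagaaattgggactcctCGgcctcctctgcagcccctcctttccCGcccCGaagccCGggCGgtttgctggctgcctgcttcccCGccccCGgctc
KCNMA1: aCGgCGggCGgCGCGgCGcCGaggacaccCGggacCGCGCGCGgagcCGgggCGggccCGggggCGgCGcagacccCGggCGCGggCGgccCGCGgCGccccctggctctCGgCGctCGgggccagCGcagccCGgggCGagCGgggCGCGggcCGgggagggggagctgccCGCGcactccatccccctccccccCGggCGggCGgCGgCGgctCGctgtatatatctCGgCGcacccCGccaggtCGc
KCND2: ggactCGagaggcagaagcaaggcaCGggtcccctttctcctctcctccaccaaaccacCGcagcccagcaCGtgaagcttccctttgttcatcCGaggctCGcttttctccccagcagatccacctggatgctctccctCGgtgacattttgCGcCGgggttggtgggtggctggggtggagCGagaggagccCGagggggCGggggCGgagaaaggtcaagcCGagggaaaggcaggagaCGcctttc
The motif searched was CG, which reads the same on both strands. It occurred 14 times in the HCN4 sequence, 18 times in KCNQ5, 46 times in KCNMA1 and 15 times in KCND2, against a median of 16 over 22156 promoters of the same length, of which 96.8% held at least 1. This KCNMA1 sequence stood at percentile 99.5 of these promoters; a second KCNMA1 start, farther into the gene at chr10:77350762-77351011, had 1 CG and stood at percentile 3.17. A promoter was given for 6 of the 9 genes.

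The 8 genes with enough label ran from early to very late. KCNQ5, a subunit of the slow M-type potassium current, was earliest, with timings over both genotypes of 0.214 to 0.307 and a median of 0.240 over the 8 plates. KCNMA1, the calcium-activated big-conductance channel, followed at 0.329 ± 0.0324 (SD, n = 8), and KCNH1, a channel of the ether-a-go-go family, at 0.437 ± 0.0343. HCN4 lay at 0.497 ± 0.0827 and KCNH7, another channel of the ether-a-go-go family, at 0.593 ± 0.0306. KCNQ3, another subunit of the M-type current, lay at 0.648 ± 0.0321. KCND2, which carries a fast A-type current in neuronal dendrites, lay at 0.712 ± 0.0346, and KCNB2, a delayed-rectifier channel, was latest at 0.792 ± 0.0282. Each pair of neighbours came in this order on 8 of 8 plates, except KCNH1 before HCN4, on 6, and HCN4 before KCNH7, on 7. KCNH1 and HCN4, HCN4 and KCNH7, KCNH7 and KCNQ3, and KCNQ3 and KCND2 lay closer together than the sum of their SDs. Across 8975 protein-coding genes with at least 10 molecules on every plate the median timing was 0.254. Of these genes 48.9% were earlier than KCNQ5, which therefore sat near the middle of all genes, and 3.97% were later than KCNB2.

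KCNT2, a sodium-activated potassium channel on chromosome 1 (196225779 to 196608440), could not be described in the same way. Its body held 85 molecules in all wells, all in the last 67.5 kb. The other 315 kb of the body held no molecule and is not analysed here. Rows of that stretch may not have been among those given for this work, so the 85 molecules are no measure of label in KCNT2. The gene had 4 to 18 molecules per plate, 36 in KO cells and 46 in WT cells, so its timing was not compared. In the other 8 bodies the longest stretch without a molecule was 1.01 to 3.38 kb.

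**Figure D1:**
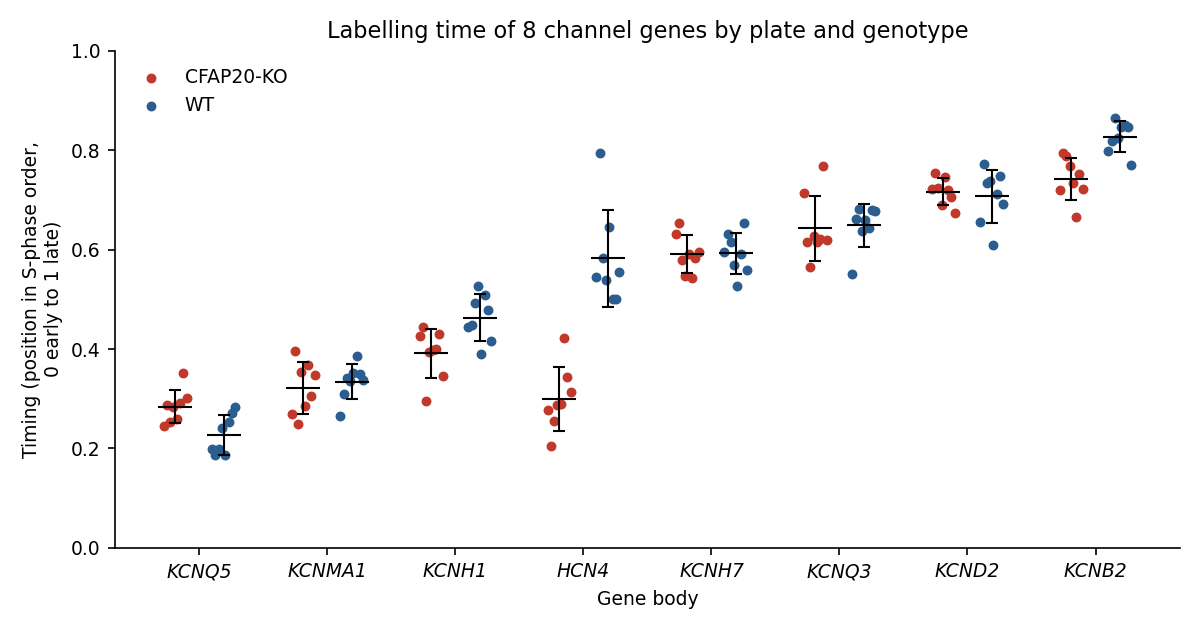
Timing of 8 channel genes (y axis, position in the S-phase order from 0, early, to 1, late) with 1 point per plate, CFAP20-KO left in red and WT right in blue, and bars at the mean ± SD of 8 plates. HCN4 is the gene whose KO and WT points do not overlap, 0.205 to 0.423 in KO cells and 0.5 to 0.794 in WT cells.

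HCN4 (chromosome 15, 73319859 to 73368958, minus strand) is the shortest of the 9 bodies, at 49.1 kb, and held 151 molecules in 71 KO cells and 345 molecules in 116 WT cells. Its timing in KO cells was 0.205 at the lowest, 0.288 at the median and 0.423 at the highest of the 8 plates, against 0.5, 0.55 and 0.794 in WT cells. Every KO plate was earlier than every WT plate. The mean was 0.299 ± 0.0644 in KO cells and 0.583 ± 0.0973 in WT cells (SD, n = 8 each), a KO minus WT difference of -0.283 ± 0.152. Of 4839 genes measured in every library, 74 (1.53%) had every KO value earlier than every WT value, and 4 had a greater mean shift towards early than HCN4. The WT value of plate 2, 0.794, was the latest, and without plate 2 the centred difference was -0.264, against -0.318 with it. With all plates and each labelled cell counted equally, the centred difference was -0.224.

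The KO molecules of HCN4 lay more in the early part of S phase and the WT molecules more in the late part, seen by dividing the ordered cells into 10 equal steps. Of the KO molecules, 67.9% ± 14.5 fell in the first 3 steps of the order and 10.6% ± 6.92 in the last 3 steps (SD, n = 8). Of the WT molecules, 29.6% ± 13.9 fell in the first 3 steps and 50.8% ± 17.8 in the last 3. The share in the last 3 steps was 0 to 21.7% in KO libraries and 35.9% to 90.5% in WT libraries. The KO libraries held 13 to 26 HCN4 molecules each and the WT libraries 23 to 74. HCN4 was chosen on this contrast, and how many other genes are split in this way was not examined. Over the whole autosomes the last 3 steps held 46.7% of KO and 43.7% of WT molecules, so KO cells as a whole did not lack late label. Per 1000000 molecules of a library (ppm), the HCN4 body had 15.4 ± 3.04 ppm in KO libraries and 22.7 ± 4.89 in WT libraries, fewer in KO on 7 of 8 plates. The DNA within 1 Mb on each side was lower in KO too, on 8 plates. Its log2 ratio of KO over WT density was -0.24 ± 0.11, against -0.56 ± 0.51 in the body (SD, n = 8). Single cells contributed up to 12 molecules in KO and 14 in WT. With the 5 cells of most molecules left out of each genotype, the pooled timing was 0.338 in KO and 0.570 in WT cells, against 0.305 in KO and 0.601 in WT cells with all cells.

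**Figure D2:**
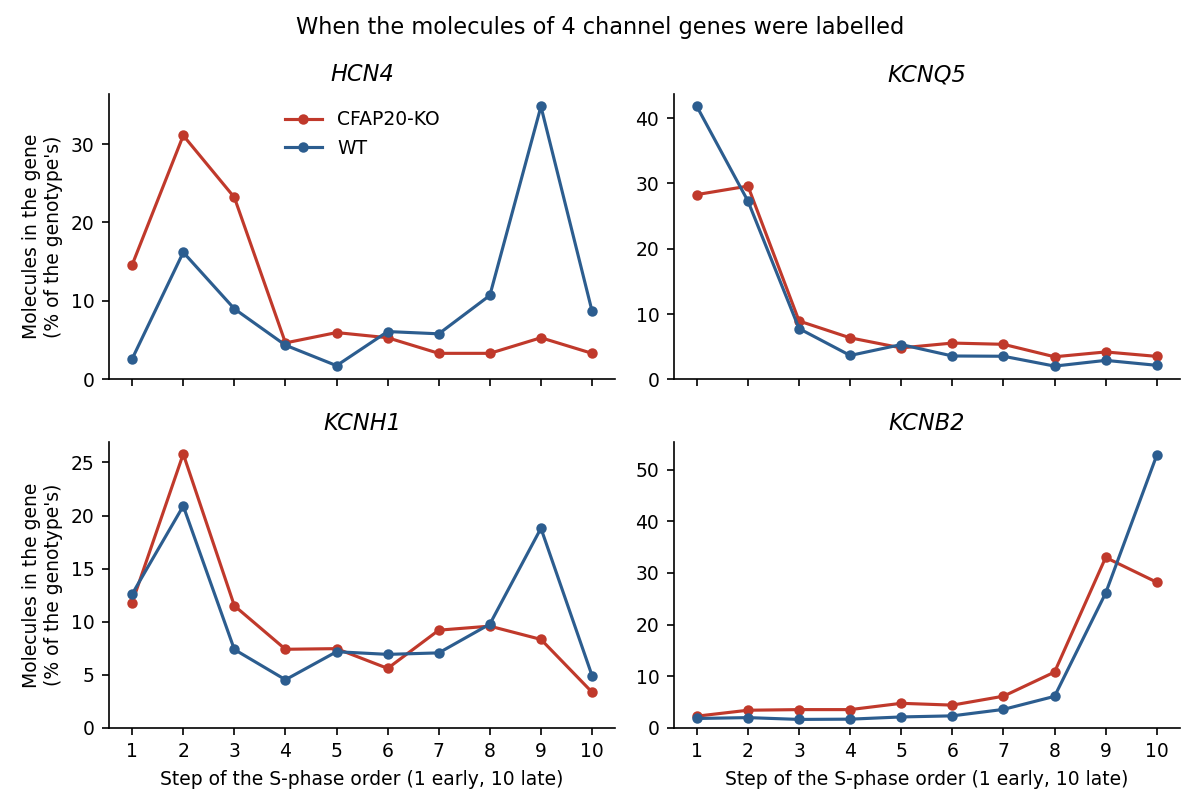
Share of each genotype's molecules in a gene (y axis, percent, all plates pooled) by step of the S-phase order (x axis, 1 early to 10 late) for 4 genes, CFAP20-KO in red and WT in blue. The WT peak of HCN4 in step 9, 34.8% of its molecules, stands against 5.30% in KO cells.

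HCN4 was not alone in its neighbourhood. In 100 kb windows, the span from 470 kb below the lower end of the body to 130 kb above it was earlier in KO cells on at least 7 of 8 plates. The window over HCN4 itself lay at 0.307 ± 0.0473 in KO and 0.595 ± 0.0710 in WT cells (SD, n = 8), and the KO minus WT difference there, -0.288, was the greatest of the windows measured around this gene. WT timing in this span peaked at 0.699, over NEO1, and KO timing at 0.502. NEO1, a receptor of netrin and repulsive guidance molecules, had 0.444 ± 0.0774 in KO cells and 0.697 ± 0.0650 in WT cells, earlier in KO on 8 plates. On the other side REC114, a meiotic recombination gene, had 0.327 ± 0.0404 in KO and 0.468 ± 0.0962 in WT cells, earlier in KO on 8 plates. NPTN, an adhesion molecule of synapses, had 0.249 ± 0.0895 in KO and 0.315 ± 0.0573 in WT cells, earlier on 6 plates. These 3 genes were named after their values had been seen. The start of HCN4 transcription, whose upstream bases are shown above, lay within the shifted span: the 100 kb around it were at 0.303 ± 0.0524 in KO and 0.588 ± 0.0591 in WT cells.

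The 3 genes whose labelling over the 10 steps of the order was most like that of HCN4, out of 3229 candidates and over both genotypes, were ILDR2, PTH2R and RGS7BP. The summed absolute difference in share was 0.179, 0.186 and 0.193, against a median of 0.708 over the candidates. ILDR2 had a timing of 0.413 ± 0.0780 in KO and 0.593 ± 0.0860 in WT cells, and RGS7BP 0.366 ± 0.0636 in KO and 0.557 ± 0.0876 in WT cells, each earlier in KO on 8 plates. PTH2R had 0.530 ± 0.0591 in KO and 0.546 ± 0.0482 in WT cells, earlier on 5 plates. The profile matched pools both genotypes, so it contains the KO shift on which HCN4 was chosen and can favour genes with a like shift. The earlier KO values of ILDR2 and RGS7BP are therefore a description and no independent support.

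**Figure D3:**
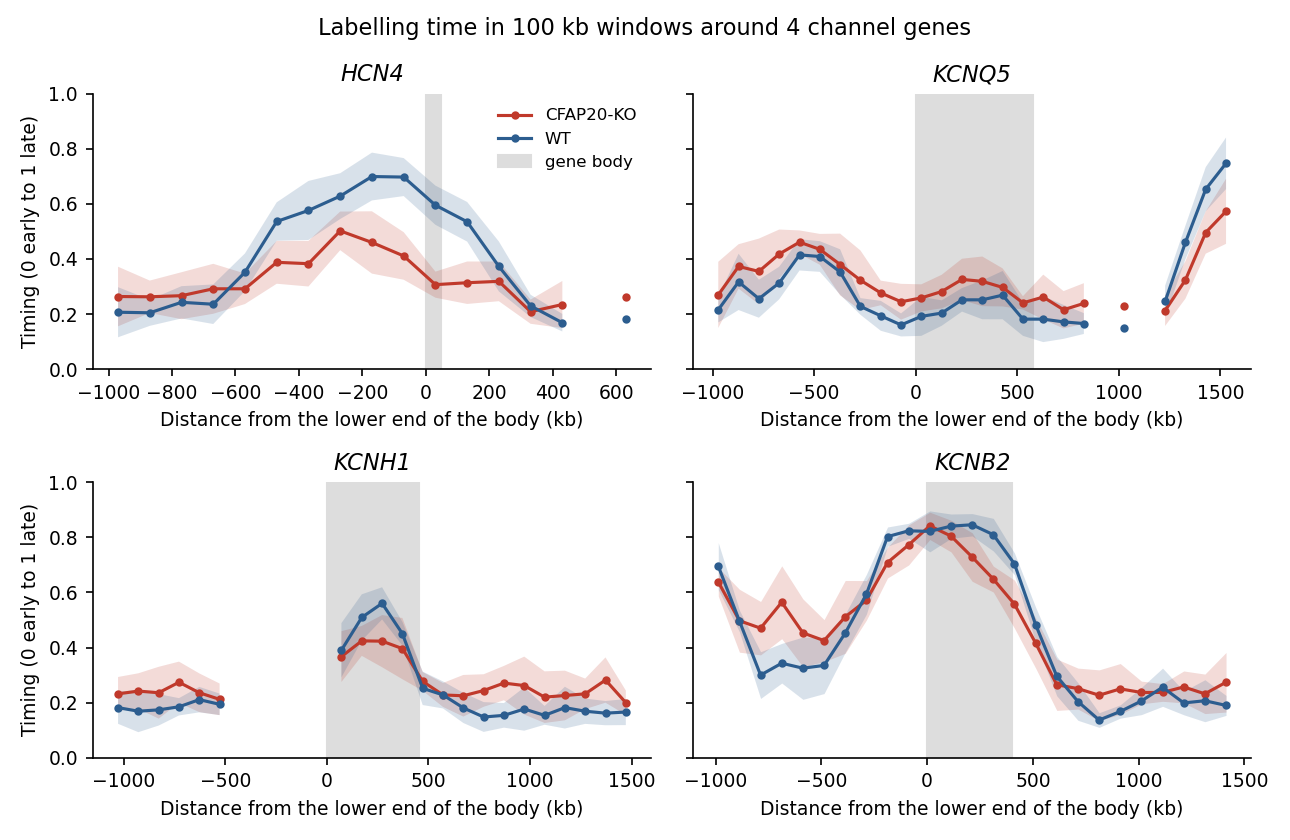
Timing (y axis, 0 early to 1 late) in 100 kb windows by distance from the lower end of the body (x axis, kb) for 4 genes, CFAP20-KO in red and WT in blue, lines at the mean and bands ± SD of 8 plates, with the body in grey; gaps are windows with too few molecules. Around HCN4 the WT line reaches 0.699 and the KO line 0.502, and both return to the early level on each side.

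KCNQ5 (chromosome 6, 72622064 to 73198853, plus strand) held 1623 molecules in 480 KO cells and 2521 molecules in 565 WT cells. Its timing was 0.246 at the lowest, 0.286 at the median and 0.352 at the highest in KO cells, against 0.186, 0.22 and 0.283 in WT cells. The KO value was later on 8 of 8 plates, by 0.0571 ± 0.0267 (SD, n = 8), while the ranges overlapped. The median gene was also later in KO, by 0.0337 on the same scale. Once each library was centred on its median gene, the KCNQ5 difference was 0.0222 ± 0.0192 (SE), with an adjusted p of 0.487 (limma), and did not pass. Its label was crowded at the start of S phase: 66.1% ± 7.66 of KO molecules and 75% ± 8.03 of WT molecules fell in the first 3 steps. Step 1 alone held 28.3% of its KO and 41.8% of its WT molecules, against 14% of all KO and 19.5% of all WT autosomal molecules, which differed between the genotypes in the same direction.

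The whole body of KCNQ5 was early. With the body cut into 3 equal parts by coordinate, its lower part lay at 0.248 ± 0.0426, its middle at 0.261 ± 0.0485 and its upper part at 0.239 ± 0.0405 (SD, n = 8), and the ends did not pass a test of their difference (exact sign-flip test over 8 plates, two-sided, adjusted p = 0.447; mean difference -0.00891 ± 0.0269). The 100 kb around its start were at 0.244 ± 0.0783 in KO and 0.186 ± 0.0751 in WT cells. Beyond the body, at 828 kb from its lower end, timing was 0.239 in KO and 0.166 in WT cells. The windows from 1328 kb on were late in WT, at 0.460 to 0.747, against 0.324 to 0.573 in KO cells. The 3 genes most like KCNQ5 out of 3109 candidates were SYT16, FMNL2 and PLCB4, at summed differences of 0.0664, 0.0681 and 0.0742 against a median of 0.538. They lay at 0.240 ± 0.0330, 0.265 ± 0.0446 and 0.241 ± 0.0483.

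Among the 7 other genes tested for timing between the genotypes, KCNH1 and KCNB2 were earlier in KO and none was later. That is 2 of 7, where 13.2% of 4839 genes were called earlier and 4.88% later (limma, adjusted p under 0.05), and the count of 2 in 7 is not read further. At an unadjusted p under 0.05 (limma), 3 of the 7 were earlier and 0 later, against 18.9% and 10.6% of all genes. KCNH1 (chromosome 1, 210678314 to 211134148, minus strand) had timings of 0.295, 0.399 and 0.444 in KO cells (lowest, median, highest), against 0.390, 0.464 and 0.527 in WT cells. It was earlier in KO on 7 of 8 plates with overlapping ranges, and the centred difference was -0.107 ± 0.0243 (SE), adjusted p = 0.00321 (limma); in cells with at least 5000 molecules it was -0.0587 (adjusted p = 0.00324, limma). KCNB2 (chromosome 8, 72537225 to 72938349) had 0.665, 0.742 and 0.795 in KO cells against 0.770, 0.835 and 0.864 in WT cells. It was earlier in KO on 8 of 8 plates, again with overlapping ranges, by -0.119 ± 0.0268 (SE) after centring, adjusted p = 0.00284 (limma). Both calls depended on weighting by molecules: with each labelled cell counted equally, the adjusted p was 0.171 for KCNH1 and 0.237 for KCNB2 (limma). Without centring, KCNH1 had an adjusted p of 0.0638 (limma).

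In both genes a smaller share of the KO than of the WT molecules was late. For KCNH1, 21.4% ± 7.81 of KO molecules and 32.9% ± 4.36 of WT molecules fell in the last 3 steps (SD, n = 8), lower in KO on 7 plates. For KCNB2 it was 71.7% ± 8.39 of KO and 84.3% ± 4.08 of WT molecules, lower in KO on 7 plates. Step 10 alone held 28.2% of KO and 52.8% of WT molecules of KCNB2. In steps 8 and 9 the KO shares were the larger, at 10.8% and 33% against 6.1% and 26.1% in WT. The KCNH1 body was latest in its middle part, at 0.503 ± 0.0446, between a lower part at 0.390 ± 0.0495 and an upper part at 0.411 ± 0.0346. At the window 272 kb from its lower end timing was 0.423 in KO and 0.560 in WT cells, and in the measured flanks of 1 Mb it was 0.233 ± 0.0386 in KO and 0.176 ± 0.0226 in WT cells, later in KO on 8 plates. The body was thus later than the measured flanks, but the DNA next to its lower end was not measured. There the windows centred 328 to 128 kb below the body held no molecule, and those beside them too few to be timed. Rows of that stretch may not have been among those given for this work. The KCNB2 body was later than its flanks of 1 Mb. These lay at 0.460 ± 0.0574 in KO and 0.409 ± 0.0347 in WT cells, later in KO on 7 plates. The window and flank values of both genes are not centred, and without centring the median gene was itself later in KO, by 0.0337. Near the lower end of the KCNB2 body the window was at 0.841 in KO and 0.821 in WT cells. In the window 313 kb on, KO cells were at 0.648 ± 0.0470 and WT cells at 0.809 ± 0.0591.

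The remaining genes gave no timing call. The centred KO minus WT difference was -0.0475 ± 0.0218 for KCNMA1 (SE, adjusted p = 0.148, limma), -0.0411 ± 0.0276 for KCNQ3 (adjusted p = 0.349, limma), -0.0370 ± 0.0288 for KCNH7 (adjusted p = 0.435, limma) and -0.0258 ± 0.0282 for KCND2 (adjusted p = 0.601, limma). These p-values do not show that the genotypes were alike. The uncentred values were close: KCNH7 had 0.590 ± 0.0380 in KO and 0.592 ± 0.0414 in WT cells (SD, n = 8), and KCNQ3 had 0.643 ± 0.0650 in KO and 0.649 ± 0.0434 in WT cells.

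**Figure D4:**
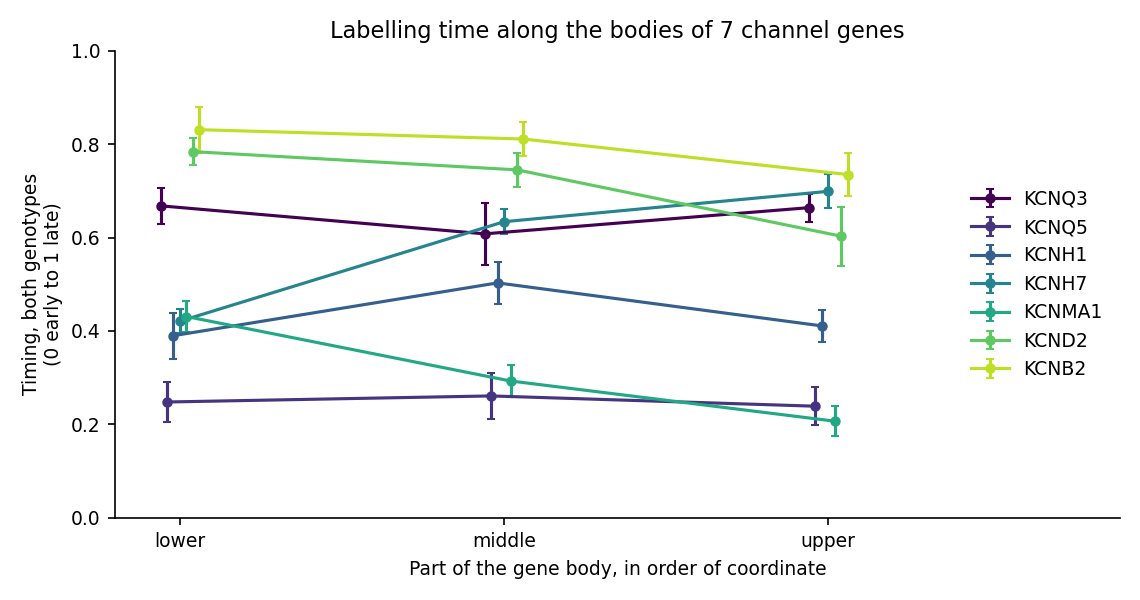
Timing over both genotypes (y axis, 0 early to 1 late) in the lower, middle and upper part of 7 gene bodies, cut into 3 equal parts by coordinate (x axis), points at the mean and bars ± SD of 8 plates. KCNH7 is at 0.421 in its lower part and 0.699 in its upper part, and KCNMA1 and KCND2 run the other way.

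Timing along the body differed in some of the long genes. In 4 of 7 genes with enough molecules the upper part differed from the lower (exact sign-flip test over 8 plates, two-sided, adjusted over the 7; the smallest p 8 plates allow is 0.00781). The same 4 of 7 had an unadjusted exact p under 0.05, which 402 of 565 measured genes of at least 360 kb (71.2%) also had, so such a difference was common among genes of this length. In KCNH7 (chromosome 2, 162371407 to 162838767) the upper part was later by 0.278 ± 0.0321 (SD, n = 8), at 0.699 against 0.421 in the lower part, on 8 plates (exact adjusted p = 0.0182). KCNH7 overlaps 1 protein-coding gene, GCA, with which it shares molecules, since the annotation was used without regard to strand. In KCNMA1 (chromosome 10, 76869602 to 77637808, minus strand) the upper part was earlier, with a difference of -0.224 ± 0.0437 on 8 plates (exact adjusted p = 0.0182). Since KCNMA1 is read from its high-coordinate end, its early part, at 0.207 ± 0.0327, is the one that holds the CG-rich start shown above, and the 100 kb around that start were at 0.209 ± 0.0697. KCND2 (chromosome 7, 120272908 to 120750337, plus strand) ran the other way with regard to its start: its lower part, which holds the start, was at 0.784 ± 0.0287 and its upper part at 0.603 ± 0.0632 (difference -0.181 ± 0.0637, exact adjusted p = 0.0182). The 100 kb around the KCND2 start were at 0.751 ± 0.0355 in KO and 0.795 ± 0.0351 in WT cells.

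In KCNB2 the upper part was earlier, by -0.0954 ± 0.0652 (SD, n = 8) on 7 plates, with an exact adjusted p of 0.0273. This call was lost, at an exact adjusted p of 0.0547, when any 1 of plates 1 to 7 was left out. KCNQ3 (exact adjusted p = 0.828), KCNQ5 and KCNH1 (exact adjusted p = 0.372) did not pass. By genotype, the early part of KCNMA1 was at 0.255 in KO and 0.185 in WT cells while its late part was at 0.385 in KO and 0.459 in WT cells. The early part of KCND2 was at 0.629 in KO and 0.592 in WT cells, and its late part at 0.766 in KO and 0.789 in WT cells. In KCNH7 the late part was at 0.715 in KO and 0.691 in WT cells, and the early part at 0.416 in KO and 0.417 in WT cells. The differences between genotypes by part were not tested.

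The number of molecules differed between the genotypes in KCND2 alone of the 7 genes tested apart from HCN4, where 1.25% of 9265 genes were called lower and 0.194% higher in KO (limma voom, adjusted p under 0.05). At an unadjusted p under 0.05 (limma voom), 2 of the 7 were lower and 0 higher, against 8.39% and 3.57% of all genes. KCND2 had 92.5, 118 and 140 ppm in KO libraries (lowest, median, highest), against 141, 177 and 204 in WT libraries. The KO range ended just below the WT range; 27 genes of 9265 (0.291%) had every KO library below every WT library. The log2 ratio of KO over WT was -0.59 ± 0.12 (SE), adjusted p = 0.00219 (limma voom), and KCND2 was lower in KO on 8 of 8 plates. The DNA around it was lower too. The flanks of 1 Mb had a log2 ratio of -0.47 ± 0.16 and the distal long arm of chromosome 7, from 105000001 to its end, -0.69 ± 0.04, with -0.57 ± 0.34 in the KCND2 body on the same scale (SD, n = 8). The difference at KCND2 and that of the whole stretch cannot be told apart here.

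**Figure D5:**
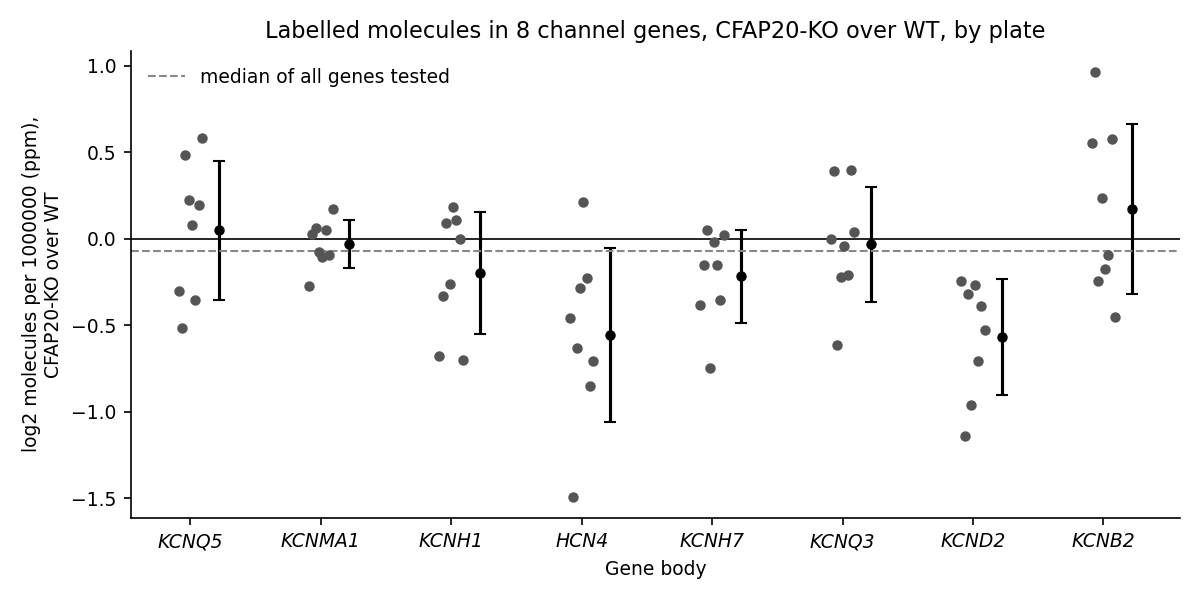
log2 ratio of ppm (molecules per 1000000 of the library) in KO over WT (y axis) for 8 channel genes, 1 grey point per plate, black points and bars at the mean ± SD of 8 plates, and a dashed line at the median of all genes tested, -0.07. All 8 KCND2 points lie below 0, while those of KCNMA1 are spread on both sides of it.

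The other 6 genes tested showed no call in molecules. The log2 ratio of KO over WT was -0.23 ± 0.11 for KCNH7 (SE, adjusted p = 0.395, limma voom), 0.22 ± 0.13 for KCNB2 (adjusted p = 0.498, limma voom) and -0.17 ± 0.12 for KCNH1 (adjusted p = 0.606, limma voom). KCNMA1, KCNQ3 and KCNQ5 lay between -0.04 and 0.01, against a median of -0.07 over all genes tested. KCNMA1 had the smallest SD of the log2 ratio among the 8 genes, 0.14, with 293 ± 27.8 ppm in KO and 299 ± 26.8 in WT libraries (SD, n = 8). In KCNB2 the plates went both ways, with fewer molecules in KO on 4 of 8. Without plate 2 the KCNB2 ratio was 0.10, without plate 1 that of KCNH1 was -0.09, and without plate 4 that of KCNH7 was -0.15. HCN4 had a log2 ratio of -0.52 ± 0.25 (SE), given with no test.

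Set against the autosomes per base, KCNQ5 was labelled less and KCNQ3 and KCNH7 more. KCNQ5 had 82.6% of the autosomal density, a log2 ratio of -0.28 ± 0.12 (SD, n = 8), below on 8 plates. KCNQ5 was chosen for its early timing, and whether its density goes with that timing was not tested. KCNQ3 and KCNH7 each had 1.19 times the autosomal density, above on 8 plates, and KCND2 had 90.3%, below on 8 plates. Each of these 4 had an exact adjusted p of 0.0156 (sign-flip test over 8 plates, two-sided, adjusted over the 8 genes). A density off the autosomal mean was usual: 55.7% of 8608 autosomal genes with at least 10 molecules on every plate had an unadjusted exact p under 0.05, as had all 8 of these genes. KCND2 had 0.698 ± 0.0885 of the autosomal density in KO and 1.04 ± 0.145 in WT cells, so its low value over both genotypes lay in the KO cells. KCNMA1, at 1.11 times the autosomes (exact adjusted p = 0.025, and 0.05 without plate 2, 6 or 8), lay on the long arm of chromosome 10, which from 60 Mb on had 1.43 times. Its density was uneven along the body, at 1.53 times in the window centred 80.4 kb from its lower end and 0.848 times in that at 680 kb. KCNB2 and HCN4, at 1.17 and 1.16 times (exact adjusted p = 0.0312 and 0.0446), and KCNH1 at 1.10 times (exact adjusted p = 0.0469), passed with all plates, and these calls were lost when most single plates were left out. With equal weight per cell KCND2 stayed below and KCNMA1 above the autosomes, and none of the other 6 passed; in cells with at least 5000 molecules neither of the 2 passed, with an exact adjusted p of 0.0938 for KCND2 and 0.0625 for KCNMA1.

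Other genes of potassium channels, their auxiliary subunits and the pacemaker channels gave a background for the 9. The list held 100 genes, of which 56 had at least 10 molecules on every plate. Of these, 48 were not among the 9, and their median timing was 0.394, against 0.254 over all genes. Of the 48, 17 were earlier and 31 later than the median gene. Among the earliest was KCNN3, a small-conductance calcium-activated channel, at 0.18 ± 0.0207 (SD, n = 8). The latest were KCNN2, of the same family as KCNN3, at 0.864 ± 0.0381 and DPP10, an auxiliary subunit of A-type channels, at 0.859 ± 0.0285. KCNN3 and KCNN2, close relatives, thus lay near opposite ends of the list.

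Between the genotypes, 3 of 28 other channel genes were called earlier in KO and 1 later, shares no higher than the 13.2% and 4.88% of all genes, with a median difference of -0.0224 against -0.00115 over all genes tested (limma). KCNC2, a fast delayed-rectifier channel, lay at 0.491 ± 0.0553 in KO and 0.593 ± 0.0497 in WT cells (SD, n = 8; centred difference -0.137, adjusted p = 0.00111, limma). KCNK2, a two-pore leak channel that responds to stretch, lay at 0.342 ± 0.0354 in KO and 0.408 ± 0.0507 in WT cells (adjusted p = 0.00602, limma). KCNAB1, a cytoplasmic beta subunit, lay at 0.283 ± 0.0262 in KO and 0.339 ± 0.0345 in WT cells (adjusted p = 0.00252, limma). KCNMB2, an auxiliary subunit of the KCNMA1 channel, went the other way, at 0.667 ± 0.0521 in KO and 0.540 ± 0.0502 in WT cells (adjusted p = 0.0145, limma), later in KO on 7 plates. For molecules, 1 of 48 was called lower and 0 higher (limma voom), and 4 were lower and 2 higher at an unadjusted p under 0.05. These shares are near those of all genes, 1.25% and 0.194% called and 8.39% and 3.57% unadjusted. DPP6, which like DPP10 is an auxiliary subunit of the KCND2 channel, had 211 ± 34.7 ppm in KO and 354 ± 39.2 in WT libraries (log2 ratio -0.73 ± 0.10 SE, adjusted p = 5.34e-07, limma voom), and lies in the same stretch of chromosome 7, from 153748133 to 154894285.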

How the data were processed

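Single-cell EdU sequencing was read from 8 files, 1 per plate; the deposited files list, per the file headers, the cell, chromosome, position, signed length and genotype of each fragment. The deposited values are positions (unit: other), not counts or scaled values; positions are on GRCh38, as the submitters' processing notes state, and no aligner or filter is named in the sources used. Genotype came from each file's own column, since the genotype label reads CFAP20-KO on all of them. Genes and promoters came from RefSeq (GRCh38.p14).

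Each fragment counted as 1 molecule; 3.24% to 4.60% shared cell, position and direction with another. Cells with at least 1000 autosomal molecules were ranked along axis 1 of a correspondence analysis (autosomal bins of 500 kb). Molecules per gene (mean of at least 10) were tested with limma 3.58.1 voom, scaled to library totals, and timing (at least 10 molecules in each library) with limma after centring on the library median, in R 4.3.3, with Benjamini-Hochberg adjustment over all genes. Because the files hold positions, no count model was used. Density and the parts of a body used exact sign-flip tests. KCNT2 was left out of tests.

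In simulations voom recovered 59% of genes changed by 2-fold and 99% by 4-fold among 9265 genes, and limma 92.5% of shifted timings among 4839. The simulated timing shift was larger than the centred differences of KCNH1, KCNB2 and the genes without a timing call. The recovery of shifts as small as theirs was not examined. Depth limits short genes: HCN4 had 38 to 88 molecules per plate, with 13 to 26 in KO libraries and 23 to 74 in WT libraries. The titles place both genotypes on each plate, so plates pair them; the mean correlation between deviations of KO and WT on the same plate was 0.0167 (-0.0472 to 0.0497).

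Named genes were the 9, the 3 most like HCN4 and KCNQ5, the 2 earliest and 2 latest other channel genes, channel genes past the threshold and protein-coding genes overlapping one of the 9; results on items withheld for evaluation are not reported here. The genes and lists were chosen with earlier results of these data known, and windows, neighbours and the removal of the 5 strongest cells after the values were seen. Alternatives covered minimum molecules, bin size, scaling, weights, filters, repeated fragments, the plate as a block, and plates left out.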

Additional observations from a re-analysis of the deposited data

Results flagged for a closer look

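Of 55 sets of 8 plate values examined, 4 had 1 plate far from the other 7, where chance flags about 5% of sets. HCN4 on plate 2 had a timing over both genotypes of 0.700, against 0.458 to 0.496 on the other plates. KCNQ3 on plate 7 had 0.721 over both genotypes, against 0.611 to 0.650. KCNQ3 in WT cells of plate 1 had 0.550, against 0.637 to 0.682 on the other plates. The timing of the upper part of KCND2 minus its lower part was -0.315 on plate 5, against -0.194 to -0.0967 on the others.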

How the results depend on the processing

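The call of KCND2 in molecules held under every alternative run. With the plate as a replicate block its adjusted p was 0.000586 (limma voom), and the block changed no other call of these genes; over all genes it raised the number called higher in KO to 40, against 18. Median-ratio scaling called 71 genes lower, against 116. For timing, 380 genes were earlier and 622 later in KO without centring, against 638 and 236, and with equal weight per cell 355 and 76. Of the 7 genes, 0 were called earlier in KO with equal weight and 1 without centring, against 2. The HCN4 timing difference between genotypes was not measured with the 5000 minimum, for too few molecules per library. Timing of KCNQ5 over both genotypes was 0.298 with that minimum and 0.422 with equal weight, against 0.249.

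Genes with less label than the autosomes numbered 1 with the 5000 minimum and 1 with equal weight, against 2; those with more numbered 3 and 1, against 6, and 2 to 5 when 1 plate was left out. Directions turned in values that had not passed. In log2 molecules, KCNQ3 was 0.05 and KCNMA1 0.04 with median-ratio scaling, and KCNQ5 -0.01 with the 5000 minimum; with 1 plate left out KCNQ3 ran from -0.09 to 0.05, KCNQ5 from -0.05 to 0.10 and KCNMA1 from -0.06 to 0.00. In timing, KCNQ5 was -0.000277 with 50 kb added on each side and -0.00479 with equal weight, KCNH7 0.00388 with the 5000 minimum, and KCND2 0.0193 with that minimum, 0.00261 with equal weight and 0.00908 without centring. The upper and lower parts of KCNQ3 differed by 0.0108 with the 5000 minimum and 0.0247 with equal weight, and from -0.0152 to 0.00345 with 1 plate left out. The causes were not tested. Of 376 values with 1 plate left out, 332 were classed as unchanged, as were 238 of 282 values under the other settings. For a tested value, unchanged meant the same direction and side of the threshold. A value without a test counted as unchanged if it moved by less than the SD of the plates. Counts of genes could move a little and still be classed so, as from 3 to 2 genes with an earlier upper part.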
